A study of Homo sapiens with 12 samples.

Results

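The 10 genes described here encode proteins that act on messenger RNAs (mRNAs) with AU-rich elements, and they were chosen by name from 56609 gene symbols, by a rule that reads no measured value, although the set was put together with earlier results of these data known. They are ZFP36, ZFP36L1, ZFP36L2, ELAVL1, HNRNPD, KHSRP, TIA1, TIAL1, YTHDF2 and CNOT1, and all 10 were among the 21698 genes that had enough counts to be tested. They were measured by RNA sequencing in A375, an established human malignant melanoma line. The 4 groups of 3 libraries were wild-type cells with DMSO, wild-type cells with 500 nM JQ1, MAPKAPK2-knockout cells with DMSO and MAPKAPK2-knockout cells with 500 nM JQ1, each harvested after 48 h. DMSO is the solvent control. JQ1 displaces BET bromodomain proteins from acetylated chromatin. The knockout was made with CRISPR/Cas9, and the labels do not say whether it is a clone or a pool. MAPKAPK2 encodes the kinase MK2, and the design crosses its loss with BET inhibition. The labels do not say whether the replicates were separate cultures, so the p-values measure the spread between these libraries, which may be technical.

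AU-rich elements are stretches of AUUUA in the 3′ untranslated region (UTR) of mRNAs for cytokines, growth regulators and other short-lived transcripts. ZFP36 (tristetraprolin) and its relatives ZFP36L1 and ZFP36L2 bind them and bring in the CCR4-NOT complex, whose scaffold is CNOT1, to shorten the poly(A) tail. MK2 phosphorylates ZFP36 and ZFP36L1, after which 14-3-3 proteins bind them and decay is held back. ELAVL1 (HuR) binds similar sequences and mostly stabilises them, HNRNPD (AUF1) and KHSRP mostly promote decay, and TIA1 and TIAL1 repress translation and enter stress granules. YTHDF2 reads N6-methyladenosine and CNOT1 is a scaffold, so these 2 genes act in the same decay route without being readers of the element itself. RNA levels alone were measured, and phosphorylation and protein amounts were not.

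The sequence that these proteins read is also present in the mRNAs of some of the 10 genes, and the longest matches are shown because they mark which members could be targets of the family. In the longest coding transcript of each gene (GENCODE 29, GRCh38), 4 of the 10 had the 9-base match TTATTTATT in the 3′ UTR, against 8.16% of 19016 coding genes. That share was not matched for the length of the UTR. Each line gives 27 bases of the transcript around that match, written as DNA, with ATTTA in capitals. The last line is CXCL8, the interleukin-8 gene, a known target of ZFP36.
ZFP36, chr19:39409197-39409223, plus strand: atgacgactttATTTAttctaatatga
ZFP36L1, chr14:68788078-68788104, minus strand: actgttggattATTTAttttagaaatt
ZFP36L2, chr2:43223449-43223475, minus strand: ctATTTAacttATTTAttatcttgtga
ELAVL1, chr19:7961829-7961855, minus strand: tttatgtATTTATTTAttgaagtgtga
CXCL8, chr4:73742665-73742691, plus strand: tgtaaagtattATTTAtttgaatctac

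All 3 ZFP36-family genes, which are paralogs, and ELAVL1 carried the match, and the other 6 did not. The 3′ UTRs of ZFP36, ZFP36L1, ZFP36L2 and ELAVL1 had 713, 1871, 1917 and 4904 bases, against a median of 1034 for coding genes. At least 1 ATTTA was present in the 3′ UTR of 8 of the 10 genes, against 67.0% of coding genes. ZFP36 had 5 in 713 bases, or 7.01 per kilobase, where the median of coding genes was 1.47 per kilobase. TIA1 and ELAVL1 had 13 each, in 3275 and 4904 bases. KHSRP and YTHDF2 had none, and 4 of the 10 genes were under the median per kilobase. A match is a description of the letters and does not show binding.

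Depth ran from 25316899 to 34594295 estimated counts per library, and the lowest count of a member in any library was 307 (ZFP36). Expression is given as CPM, the counts of a gene relative to the total of its library after TMM scaling. MAPKAPK2 was at 89.6 ± 2.20 CPM with DMSO and 117 ± 4.31 CPM with JQ1 in wild type, and at 12.4 ± 1.15 and 14.4 ± 1.61 CPM in knockout (SD, n = 3), so the targeted gene followed the labels. Of the melanocyte markers, SOX10 was at 437 ± 7.38 CPM and MITF at 43.1 ± 1.01 CPM in wild-type DMSO. The means of the pigment genes PMEL, MLANA, TYR, DCT and TYRP1 lay under 1 CPM in that group. Among 5 leukocyte markers there, PTPRC was at 0.188 CPM, LYZ at 2.59, 2.27 and 2.47 CPM and CD68 at 14.8, 14.2 and 16.7 CPM. The 5 summed to 17.8 to 20.3 CPM, and 2 of them reached 1 CPM. The summed CPM of 8 melanocyte lineage markers was 501 to 516 with DMSO and 587 to 677 with JQ1 in wild type, and 460 to 535 and 560 to 766 in knockout. That of 5 dedifferentiated melanoma markers was 273 to 287 and 464 to 534, and 202 to 234 and 391 to 471, in the same order. SOX10 made up most of the first sum and AXL (240, 252 and 250 CPM in wild-type DMSO) most of the second. The sums therefore do not show how the other markers moved. In wild type MITF and NGFR were lower with JQ1 in every library, while S100B and EGFR were higher. The part of either sum in the results was not tested. Knockout JQ1 replicate 3 stood apart. RN7SK, RN7SL1, RN7SL2 and RMRP, 4 abundant noncoding RNAs, took 14.6% of its counts, against 11% and 12.3% in its replicates. It was the highest of its group for 6 of the 10 genes and the lowest for the other 4. In its own group, wild-type JQ1 replicate 3 was the highest for 3 genes and the lowest, or tied for the lowest in rounded CPM, for 6. The values of knockout JQ1 replicate 3 are given apart where a result turned on it.

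Levels between genes were compared as CPM per kilobase of the longest coding transcript, so the order depends on which isoform the cells make. In wild-type DMSO the order was led by KHSRP at 50.7 ± 1.54 and HNRNPD at 47.1 ± 2.31 CPM per kilobase, followed by CNOT1 at 40.8 ± 1.52 and YTHDF2 at 29.2 ± 0.967 (SD, n = 3). These 4 did not overlap between neighbours over the 3 libraries. ZFP36L1 (13.9 ± 0.723), ELAVL1 (13.4 ± 0.718), TIAL1 (13.2 ± 0.361) and ZFP36L2 (12.6 ± 0.406) formed a middle group in which each neighbour overlapped the next. TIA1 at 8.82 ± 0.504 and ZFP36 at 7.04 ± 0.0855 CPM per kilobase were the lowest and did not overlap. In knockout JQ1 the first 4 kept their order, and TIA1 (6.41 ± 1.18) and ZFP36 (8.66 ± 1.66) overlapped, with ranges of 5.19 to 7.53 and 7.33 to 10.5.

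**Figure D1:**
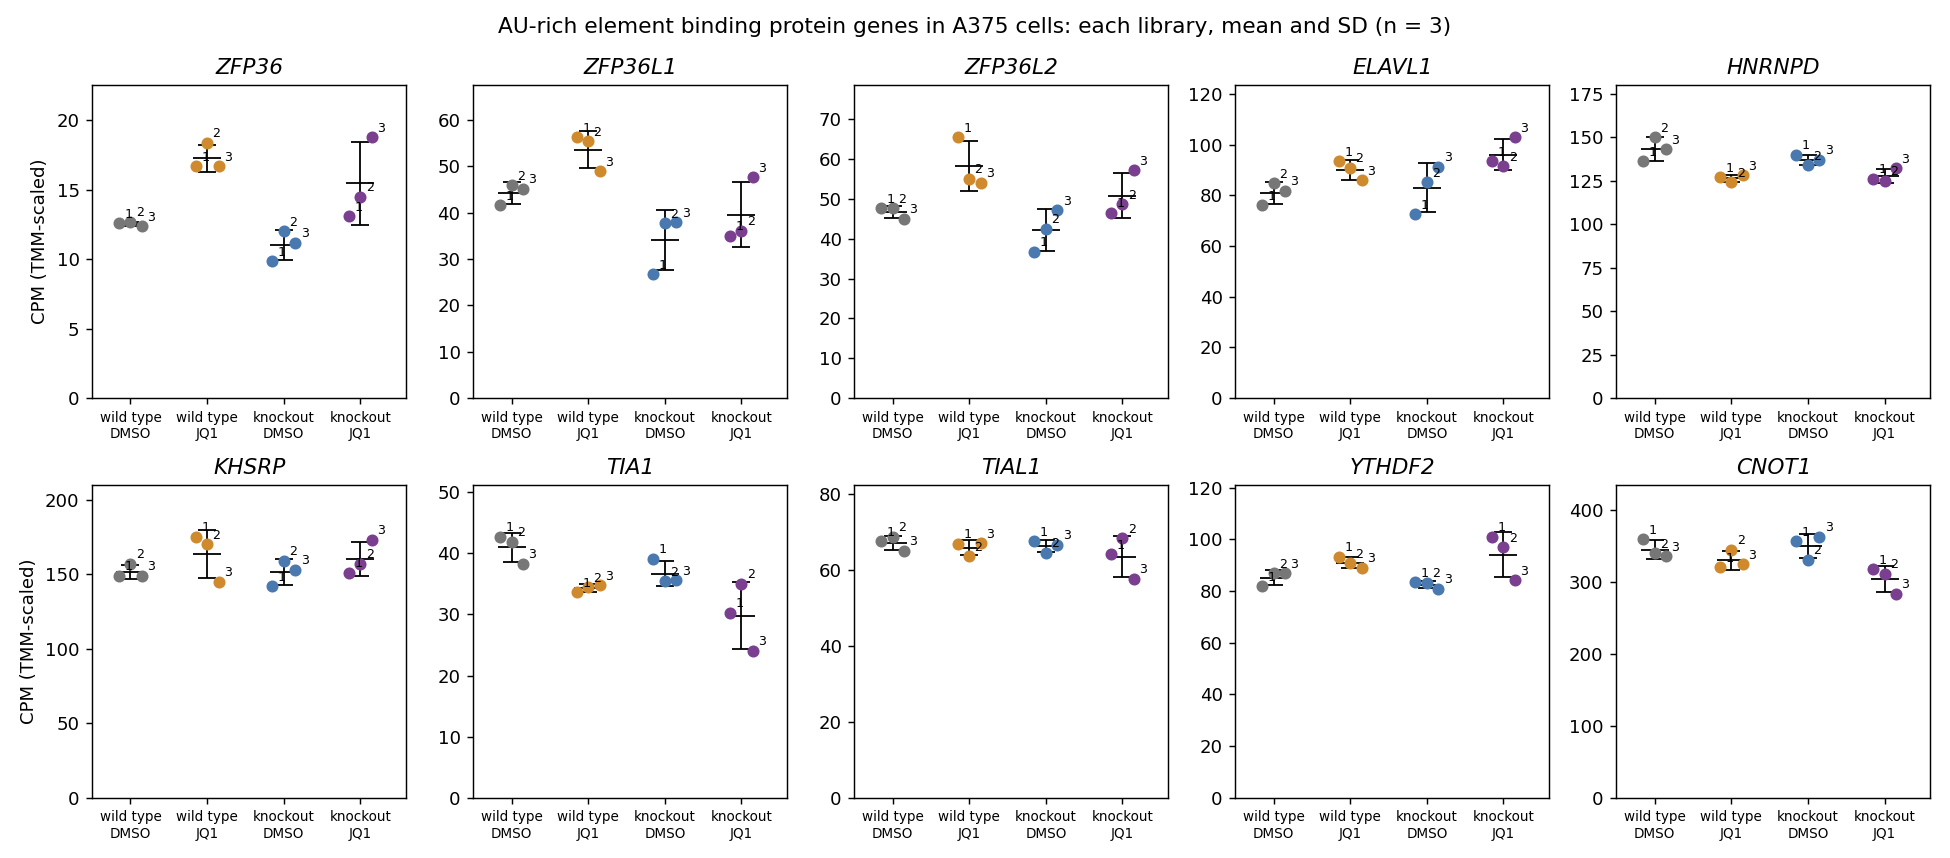
Expression of the 10 genes in each library (CPM on TMM-scaled libraries, linear axes from 0). Points are libraries with their replicate number, horizontal lines are means and bars are SD (n = 3). In wild-type cells all ZFP36 points with JQ1 (16.7 to 18.4 CPM) lie above those with DMSO (12.4 to 12.7 CPM), and ZFP36L1 is lower in every knockout library than in the wild-type libraries of the same treatment.

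JQ1 was first compared with DMSO in wild-type cells, and 3 of the 10 genes passed the test: ZFP36 and ZFP36L2 rose and HNRNPD fell. Passing means an adjusted p of at most 0.05 in the quasi-likelihood test of edgeR, with Benjamini-Hochberg correction over all genes tested. Of all genes tested, 33.1% passed, 16.9% higher and 16.2% lower, so the share among the 10 genes was near that background. The median log2 fold change of the 10 was 0.10, against -0.034 over all genes tested. In bulk RNA, fewer cells that express a gene and less of its RNA per cell cannot be told apart.

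ZFP36, the family's founding decay factor, stood at 12.6, 12.7 and 12.4 CPM in the 3 wild-type DMSO libraries and at 16.7, 18.4 and 16.7 CPM with JQ1. The groups did not overlap. The log2 fold change was 0.46 (SE 0.12, 95% interval 0.21 to 0.71, edgeR adjusted p 0.00777), a 1.37-fold rise. This call held in all 23 alternative analyses, with log2 fold changes from 0.33 to 0.49 and adjusted p from 0.000342 to 0.0371.

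ZFP36L2, the paralog with the same zinc fingers for the element, was at 47.6, 47.6 and 45 CPM with DMSO and at 65.5, 55.1 and 54.1 CPM with JQ1. All 3 JQ1 libraries were higher, and replicate 1 was the highest. The rise was 1.25-fold (log2 fold change 0.32, SE 0.10, edgeR adjusted p 0.0248). The call ended without wild-type DMSO replicate 1, 2 or 3 (adjusted p 0.051, 0.0521 and 0.0814) and without wild-type JQ1 replicate 1 (0.134). Scaling by library totals also ended it, at a log2 fold change of 0.19 (edgeR adjusted p 0.155).

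ZFP36L1, the third paralog, was at 41.6, 45.9 and 45.2 CPM with DMSO and at 56.3, 55.4 and 49.0 CPM with JQ1. Its groups did not overlap either, yet it did not pass the test (log2 fold change 0.28, SE 0.13, edgeR adjusted p 0.122). ZFP36L1 passed with the groups compared alone (edgeR adjusted p 0.00151) and with no filter on low counts (0.0127). It also passed without knockout DMSO replicate 1 (0.0444) or knockout JQ1 replicate 3 (0.0407). Summed over the paralogs, expression was 104 ± 2.43 CPM in wild-type DMSO (range 102 to 106) and 129 ± 9.32 CPM in wild-type JQ1 (range 120 to 139; SD, n = 3 each).

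HNRNPD was at 136, 150 and 143 CPM with DMSO and at 127, 124 and 128 CPM with JQ1, again without overlap. It fell by 0.18 on the log2 scale (SE 0.052, edgeR adjusted p 0.013), to 0.88 of the DMSO level. The call ended without wild-type DMSO replicate 2 (adjusted p 0.0868), without wild-type JQ1 replicate 2 (0.0595) and without the filter on low counts (0.0971).

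The other 6 genes did not pass in wild-type cells. TIA1, the stress granule protein, was at 42.7, 41.9 and 38.3 CPM with DMSO and at 33.6, 34.5 and 34.8 CPM with JQ1. These groups did not overlap, with a log2 fold change of -0.26 (SE 0.10, edgeR adjusted p 0.0706). TIA1 passed without knockout JQ1 replicate 2 (adjusted p 0.0333) or 3 (0.00645), 2 libraries that enter this contrast only through the shared estimate of spread. It also passed with the groups compared alone (edgeR adjusted p 0.00418), under library totals (0.0156) and with no filter on low counts (0.0435). ELAVL1, the stabilising protein, had a log2 fold change of 0.16 (edgeR adjusted p 0.154), YTHDF2 of 0.09 (0.305), KHSRP of 0.11 (0.297), CNOT1 of -0.07 (0.437) and TIAL1 of -0.03 (0.79). ELAVL1 passed with the groups compared alone (edgeR adjusted p 0.0123), and CNOT1 passed under library totals (0.0254). In all, 7 of the 10 genes had groups that did not overlap, against 50.4% of all genes tested.

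The starts of ZFP36 and HNRNPD are shown because these genes passed in opposite directions under a drug that acts at chromatin. Each line gives 300 bases from the RefSeq promoter table (GRCh38.p14), 250 before to 50 after the start, read along the gene's strand. Capitals mark GGGCGG or its complement, the Sp1 box. Promoters were found for 7 of the 10 genes; those of ZFP36L2, ELAVL1 and CNOT1 were not analysed here.
ZFP36, chr19:39406597-39406896, plus strand: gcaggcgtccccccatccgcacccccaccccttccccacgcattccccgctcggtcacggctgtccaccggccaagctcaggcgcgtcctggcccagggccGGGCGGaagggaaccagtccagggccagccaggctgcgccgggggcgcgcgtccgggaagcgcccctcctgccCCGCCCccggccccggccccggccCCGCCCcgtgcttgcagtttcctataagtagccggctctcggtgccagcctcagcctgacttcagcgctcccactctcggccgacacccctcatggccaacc
HNRNPD, chr4:82373942-82374241, minus strand: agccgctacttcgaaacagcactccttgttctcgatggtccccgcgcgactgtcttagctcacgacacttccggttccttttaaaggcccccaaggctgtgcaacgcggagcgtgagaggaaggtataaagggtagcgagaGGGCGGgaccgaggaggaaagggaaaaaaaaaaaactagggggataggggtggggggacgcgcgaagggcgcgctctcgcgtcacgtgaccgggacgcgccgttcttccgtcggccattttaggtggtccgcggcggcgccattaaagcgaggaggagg

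ZFP36 held 3 Sp1 boxes in a window of 74.7% GC, and HNRNPD held 1 in a window of 60.7% GC. That box was present in 45.0% of 35116 promoters of the same length, counting both strands. HNRNPD further held 1 TATAAA (in 11.5% of promoters), 1 E-box (CACGTG, 7.26%) and 1 ETS core (CCGGAAGT, 4.14%), while ZFP36 held none of these exact matches. TATAAA stands for the TATA box, but only these letters were searched, at any position in the window. ZFP36 held the near match tataag, which was not counted, so the search does not tell which gene has a working TATA box. Neither held CCAAT (34.6%), TGACGTCA (1.85%), TGACTCA (4.95%), GCGTGGGCG (0.795%) or the NF-kappaB site searched (0.191%). No matches of different motifs overlapped in either window. These are matches of letters, and binding there was not measured.

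In knockout cells JQ1 was compared with DMSO in the same way, and 4 of the 10 genes passed: ZFP36 and YTHDF2 rose, and TIA1 and CNOT1 fell. Over all genes tested 34.4% passed, 16.7% higher and 17.8% lower. The median log2 fold change of the 10 was 0.14, against -0.004 over all genes tested. The only gene among the 10 that passed in both genotypes was ZFP36.

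ZFP36 was at 9.84, 12 and 11.2 CPM in knockout DMSO and at 13.1, 14.5 and 18.8 CPM in knockout JQ1. All JQ1 libraries were higher, and replicate 3 was the highest by a wide margin. The rise was 1.41-fold (log2 fold change 0.49, SE 0.12, 95% interval 0.23 to 0.75, edgeR adjusted p 0.00528). Without knockout JQ1 replicate 3 it was 0.33 on the log2 scale (adjusted p 0.0184), and over the 23 alternatives the adjusted p ran from 0.000431 to 0.0288.

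YTHDF2, the reader of methylated mRNAs, was at 83.5, 83.2 and 80.9 CPM with DMSO and at 101, 97.1 and 84.2 CPM with JQ1. Replicate 3 with JQ1 lay close to the DMSO libraries. The log2 fold change was 0.19 (SE 0.066, edgeR adjusted p 0.0352). Without knockout JQ1 replicate 3 it was 0.27 (adjusted p 0.000589). The call was lost without any of the 3 wild-type DMSO libraries, any of the 3 knockout DMSO libraries or knockout JQ1 replicate 1 or 2, with edgeR adjusted p from 0.0516 to 0.144. Scaling by library totals brought the value to 0.08 (adjusted p 0.435). YTHDF2 also did not pass with the groups compared alone (edgeR adjusted p 0.149) or with no filter on low counts (0.0858).

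CNOT1, the CCR4-NOT scaffold, was at 357, 331 and 363 CPM with DMSO and at 318, 312 and 284 CPM with JQ1, without overlap. It fell by 0.20 on the log2 scale (SE 0.058, edgeR adjusted p 0.0143), to 0.87 of the DMSO level. The call ended without knockout DMSO replicate 1 (adjusted p 0.062) or 3 (0.0798), and with the groups compared alone (0.0635).

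TIA1 was at 39.1, 35.4 and 35.6 CPM with DMSO and at 30.3, 35 and 24.1 CPM with JQ1. The highest JQ1 library lay just under the lowest DMSO library, and replicate 3 was far below the rest. In the authors' normalized signal the groups overlapped, with JQ1 replicate 2 at 1225 and the DMSO libraries at 1220, 1117 and 1098. TIA1 fell by 0.30 on the log2 scale (SE 0.10, edgeR adjusted p 0.0364). Without knockout JQ1 replicate 3 the log2 fold change was -0.17 (adjusted p 0.112). The call was also lost without any wild-type or knockout DMSO library, wild-type JQ1 replicate 2 or knockout JQ1 replicate 1 (edgeR adjusted p from 0.0504 to 0.139). TIA1 further did not pass with the groups compared alone (edgeR adjusted p 0.109) or with the authors' gene and library factors (0.0958). Limma on the authors' signal gave an adjusted p of 0.071. With the 4 noncoding RNAs left out before scaling, TIA1 kept a log2 fold change of -0.30 (edgeR adjusted p 0.0364), and no log2 fold change of the 10 genes in any contrast moved by more than 0.001. TIA1 overlaps C2orf42 on the same strand (12873 against 3553 counts over the 12 libraries), so some reads may have been assigned to either.

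The remaining 6 genes did not pass in knockout cells. ELAVL1 was at 72.5, 85.3 and 91.4 CPM with DMSO and at 93.6, 91.6 and 103 CPM with JQ1, all JQ1 libraries higher (log2 fold change 0.21, edgeR adjusted p 0.0572). ZFP36L2 was at 36.7, 42.5 and 47.2 CPM with DMSO and at 46.5, 48.7 and 57.2 CPM with JQ1 (log2 fold change 0.27, edgeR adjusted p 0.0533), and the groups overlapped. Both lay close to the threshold and passed with DESeq2 (adjusted p 0.0475 and 0.0443). Without knockout DMSO replicate 1 the values fell to 0.12 for ELAVL1 and 0.18 for ZFP36L2, and without knockout JQ1 replicate 3 ZFP36L2 was at 0.18. ZFP36L1 had a log2 fold change of 0.22 (edgeR adjusted p 0.237), which was 0.067 without knockout DMSO replicate 1 and 0.062 without knockout JQ1 replicate 3. HNRNPD had a value of -0.10 (0.15), KHSRP of 0.09 (0.417) and TIAL1 of -0.06 (0.496). Under library totals HNRNPD passed, at -0.22 (edgeR adjusted p 0.00479). Over the 10 genes 6 had groups that did not overlap, against 42.3% of all genes tested.

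**Figure D2:**
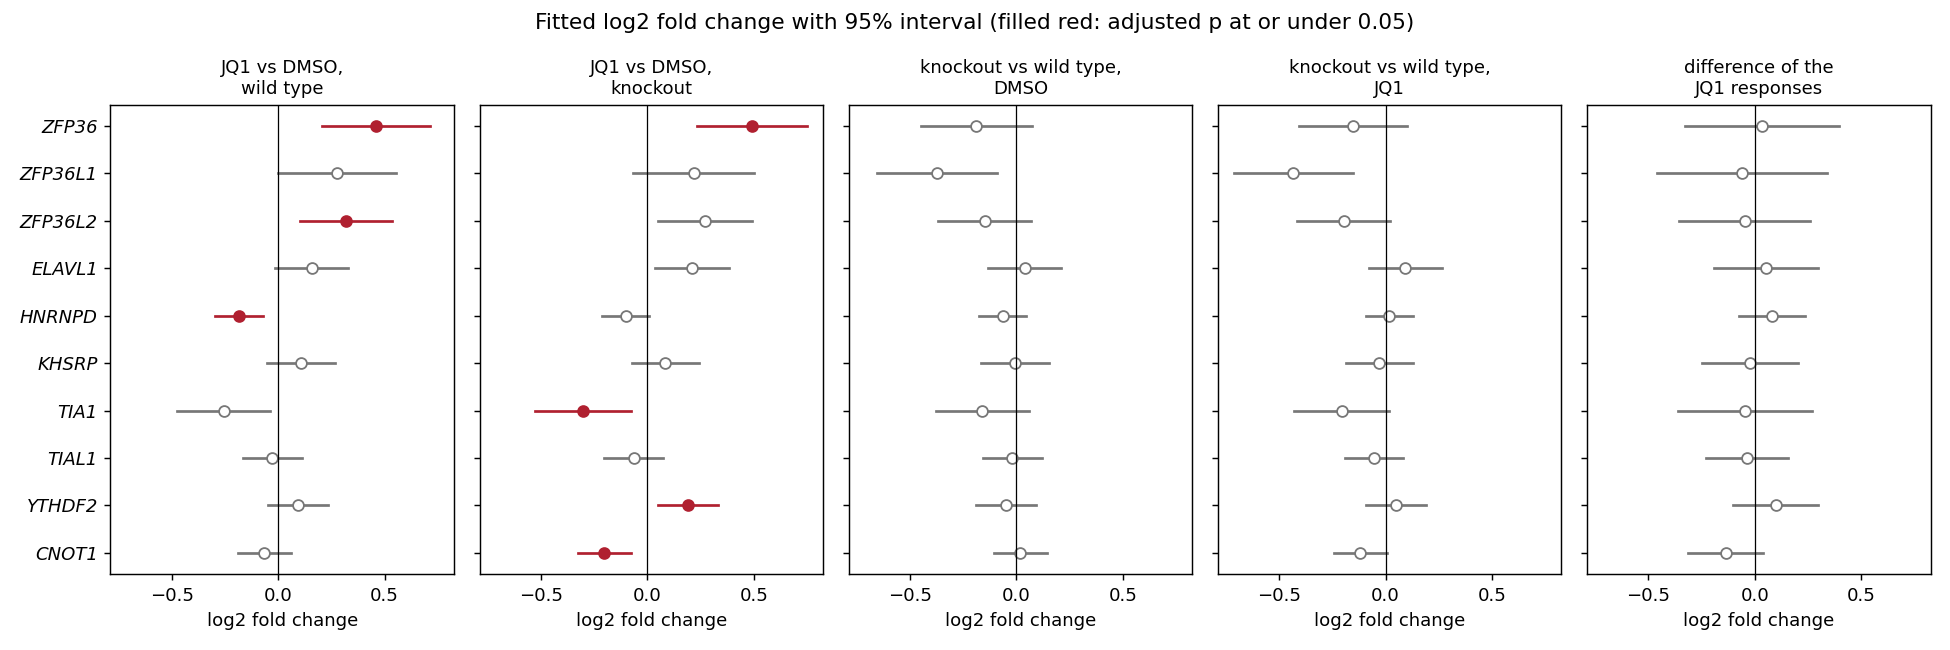
Log2 fold changes of the 10 genes in the 5 contrasts, with 95% intervals from edgeR (x axis, log2 units). Filled red points have an adjusted p of at most 0.05 over all genes tested. ZFP36 is at 0.46 in wild-type and 0.49 in knockout cells with JQ1, and no point is filled in the contrasts of knockout with wild type or in the difference of the JQ1 responses.

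Whether the response to JQ1 differed between genotypes was tested as the difference of the responses, knockout minus wild type. None of the 10 genes passed with edgeR, none had an unadjusted p under 0.05, and DESeq2 called 0. Over all genes tested 29 passed, or 0.134%. For ZFP36 the difference was 0.03 on the log2 scale, with a 95% interval from -0.33 to 0.40, and for ZFP36L1 it was -0.06 (-0.46 to 0.34). The intervals of ZFP36L2 and HNRNPD, which passed in wild type only, ran from -0.36 to 0.26 and from -0.07 to 0.24. Those of YTHDF2, TIA1 and CNOT1, which passed in knockout only, ran from -0.10 to 0.30, from -0.36 to 0.27 and from -0.31 to 0.04. All of these intervals included 0, so a gene that passed in a single genotype was not shown to respond differently. The difference without knockout JQ1 replicate 3 was -0.14 for ZFP36 and 0.09 for TIA1 (edgeR adjusted p 0.708 and 0.761).

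Knockout was compared with wild type in DMSO, and 0 of the 10 genes passed with edgeR or with DESeq2, while 1 had an unadjusted p under 0.05. Of all genes tested 7.92% passed, 3.47% higher and 4.44% lower. The contrast shares the wild-type DMSO libraries with the JQ1 contrast in wild-type cells, and the knockout DMSO libraries with that in knockout cells. The gene with the unadjusted p under 0.05 was ZFP36L1, an MK2 substrate. It was at 26.7, 37.7 and 38 CPM in knockout DMSO, below each of the wild-type values of 41.6, 45.9 and 45.2 CPM. The log2 fold change was -0.37 (SE 0.13, 95% interval -0.66 to -0.09, unadjusted p 0.0131, edgeR adjusted p 0.113), and replicate 1 was the lowest. Without replicate 1 the log2 fold change shrank to -0.21 (edgeR adjusted p 0.346). Without knockout JQ1 replicate 3, which enters only the spread, the adjusted p was 0.0274.

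ZFP36 in knockout DMSO (9.84 to 12 CPM) also lay under the wild-type libraries (12.4 to 12.7 CPM), with a log2 fold change of -0.19 and an edgeR adjusted p of 0.443. Without knockout DMSO replicate 1 it was -0.10 (adjusted p 0.756). These were the 2 genes of the 10 whose groups did not overlap, against 29.6% of all genes tested. The log2 fold changes of the other 8 ran from -0.16 (TIA1) to 0.04 (ELAVL1). The 95% interval of KHSRP ran from -0.17 to 0.15 and that of CNOT1 from -0.11 to 0.14.

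In JQ1, where both groups are shared with the JQ1 contrasts, 0 of the 10 genes passed between knockout and wild type by edgeR, 1 had an unadjusted p under 0.05, and DESeq2 called 1. Over all genes tested 8.57% passed, 3.01% higher and 5.56% lower. ZFP36L1 was at 35, 36.1 and 47.7 CPM in knockout JQ1 and at 56.3, 55.4 and 49.0 CPM in wild-type JQ1. The highest knockout library, replicate 3, came near the lowest wild-type library. The log2 fold change was -0.43 (SE 0.13, 95% interval -0.71 to -0.15), or 0.741 of the wild-type level, with an edgeR adjusted p of 0.0564. With DESeq2 the adjusted p was 0.021. Without knockout JQ1 replicate 3 the log2 fold change was -0.59 (edgeR adjusted p 0.004), and ZFP36 was at -0.32 (adjusted p 0.046) against -0.15 (0.526) with all libraries. These values were -0.35 for ZFP36L1, which did not pass, and -0.048 for ZFP36 without knockout JQ1 replicate 1 (edgeR adjusted p 0.872). Without knockout DMSO replicate 1 ZFP36L1 was at -0.43 with an edgeR adjusted p of 0.0166.

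CNOT1 was the other gene without overlap in JQ1, at 318, 312 and 284 CPM in knockout and 321, 345 and 325 CPM in wild type (log2 fold change -0.12, edgeR adjusted p 0.273). For such groups the share was 23.1% of all genes tested. ZFP36L2 had a log2 fold change of -0.20 (edgeR adjusted p 0.297), which was -0.10 without wild-type JQ1 replicate 1. TIA1 had a value of -0.21 (edgeR adjusted p 0.29), which was -0.34 without knockout JQ1 replicate 2 and -0.072 without replicate 3. The log2 fold changes of HNRNPD (0.02), KHSRP (-0.03), YTHDF2 (0.05), TIAL1 (-0.06) and ELAVL1 (0.09) were smaller.

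Summed over the ZFP36 paralogs, expression was 87.3 ± 12.4 CPM in knockout DMSO (range 73.3 to 96.5) and 106 ± 15.6 CPM in knockout JQ1 (range 94.6 to 124; SD, n = 3 each). The knockout DMSO sums all lay under the wild-type DMSO range of 102 to 106 CPM, while with JQ1 the ranges overlapped. ZFP36L1 made up 42.7% ± 1.63 of the family's CPM for wild type with DMSO, 41.5% ± 1.28 for wild type with JQ1, 38.9% ± 2.24 for knockout with DMSO and 37.3% ± 1.12 for knockout with JQ1 (SD, n = 3 each). ZFP36L2 made up 45.1% ± 1.46, 45.1% ± 2.28, 48.4% ± 2.06 and 48.1% ± 1.63 in the same order. These shares are not corrected for transcript length and had no test.

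Over the 12 libraries, the log2 CPM of the 45 pairs of these genes correlated with Pearson's r from -0.83 to 0.88, with a median of -0.20. The 12 points share 4 conditions and the library's depth and scaling, so r is a description. The pairs over 0.8 were ZFP36 with ZFP36L2 (0.88), ZFP36L1 with ZFP36L2 (0.86), TIA1 with TIAL1 (0.84) and TIA1 with CNOT1 (0.82). The lowest was ELAVL1 with TIA1. The paralog pairs of both families thus ran in parallel across libraries. ELAVL1 ran opposite to TIA1 and to CNOT1 (-0.731), and in parallel with ZFP36 (0.695), ZFP36L2 (0.694) and KHSRP (0.728).

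**Figure D3:**
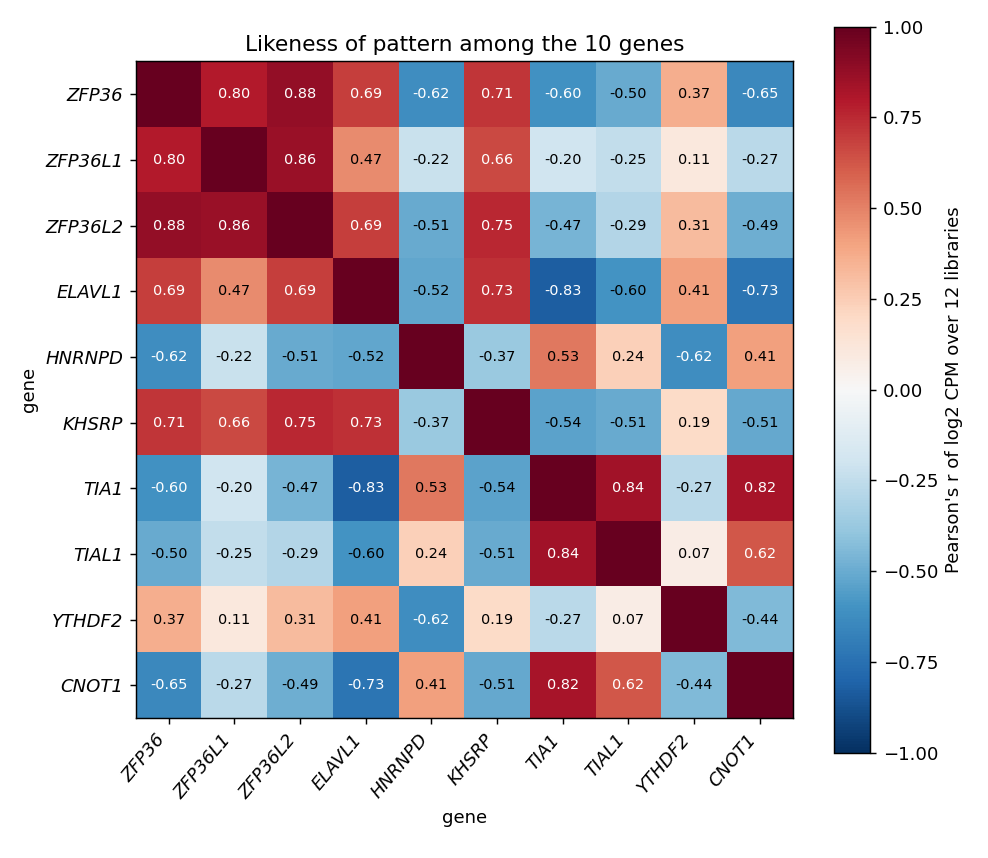
Pearson's r of log2 CPM over the 12 libraries for each pair of the 10 genes (colour scale from -1 to 1, values printed in the cells). The 3 ZFP36-family genes, ELAVL1 and KHSRP form a block of positive values, and TIA1, TIAL1 and CNOT1 form another, with negative values between the blocks.

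Among 11241 other genes whose mean reached 5 CPM, the pattern most like that of ZFP36 was that of LENG8 (r = 0.979), SLC6A8 (0.978) and RNF187 (0.973). For ZFP36L1 it was FZR1 (0.972), BCOR (0.962) and SLC6A10P (0.96), and for ZFP36L2 CABLES2 (0.966), AC138932.1 (0.963) and CCDC92 (0.95). RNF187 rose with JQ1 in both genotypes, with log2 fold changes of 0.55 in each (edgeR adjusted p 0.000486 in wild type and 0.000416 in knockout). BCOR was lower in knockout, at -0.31 in DMSO and -0.35 with JQ1 (edgeR adjusted p 0.0453 and 0.0222). Both genes were picked for their likeness to a ZFP36 paralog over these same libraries, so their changes follow in part from that choice. They are not independent findings, and the changes of the other genes picked are not given.

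The other genes of the same decay route were read from lists chosen by function, with earlier results of these data known. The shares called over all genes tested, 33.1% and 34.4% with JQ1 in wild type and knockout and 7.92% and 8.57% between genotypes in DMSO and JQ1, are the background for each list. Of 26 further RNA-binding proteins of 3′ UTRs, JQ1 raised 3 and lowered 3 in wild-type cells, and raised 5 and lowered 6 in knockout cells, or 23.1% and 42.3% called. The number called was 10 rather than 6 in wild type without knockout JQ1 replicate 3, and in knockout it was 6 and 7 rather than 11 without knockout DMSO replicate 1 and 2. Their median log2 fold changes were 0.029 and 0.026. YBX1, a cold-shock domain protein that packages mRNA, rose by 0.42 in wild type (SE 0.048, edgeR adjusted p 9.97e-06) and 0.32 in knockout (9.33e-05), and HNRNPAB by 0.28 (0.000399) and 0.39 (1.58e-05). Knockout raised 2 in DMSO, both of the IGF2BP family, which stabilises its bound mRNAs. IGF2BP3 was at 215, 215 and 208 CPM in wild-type DMSO and 318, 287 and 306 CPM in knockout DMSO, a 1.43-fold rise (edgeR adjusted p 0.00165). IGF2BP2 rose 1.25-fold (adjusted p 0.00253). With JQ1 the knockout again raised both, IGF2BP3 by 0.32 on the log2 scale (edgeR adjusted p 0.0361), though its libraries overlapped, and IGF2BP2 by 0.20 (0.0459). Of the genes of this list, 0 or 1 were called in that contrast without any 1 of the wild-type libraries, knockout DMSO replicate 3 or knockout JQ1 replicate 1 or 2.

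Of 19 deadenylase genes and adaptors besides CNOT1, JQ1 raised 3 and lowered 3 in wild-type cells, and raised 3 and lowered 5 in knockout cells, or 31.6% and 42.1% called. BTG1, an antiproliferative adaptor of the deadenylase, was at 109, 109 and 103 CPM for wild type with DMSO, 127, 132 and 127 CPM for wild type with JQ1, 90, 87.1 and 85.0 CPM for knockout with DMSO and 118, 117 and 121 CPM for knockout with JQ1. It rose with JQ1 by 0.27 in wild type (edgeR adjusted p 0.000894) and 0.45 in knockout (8.96e-06), and was lower in knockout DMSO than in wild type (log2 fold change -0.29, adjusted p 0.00185). Its paralog BTG2 was higher in knockout DMSO (0.53, edgeR adjusted p 0.00278) and fell with JQ1 in knockout by 0.52 on the log2 scale (adjusted p 0.000767). TNKS1BP1, a CCR4-NOT partner, rose by 0.53 in wild-type cells with JQ1 (edgeR adjusted p 0.00396). No deadenylase gene passed between genotypes in JQ1 with edgeR, where 3 had an unadjusted p under 0.05. DESeq2 also called 0, and without knockout JQ1 replicate 3 edgeR called 1.

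Poly(A)-binding proteins and partners numbered 8, with 2 higher and 1 lower with JQ1 in wild type and 3 higher in knockout (37.5% called in each), but 1 in knockout without knockout DMSO replicate 1. PAIP1, which links poly(A)-binding protein to translation, fell by 0.32 on the log2 scale in wild type (edgeR adjusted p 0.00849), and PAIP2B rose by 0.50 (0.0124). PABPN1 rose by 0.21 and PABPC4 by 0.24 in knockout (edgeR adjusted p 0.00527 and 0.0194). With library totals as the scaling, 0 of the 8 were called higher in either genotype.

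Of 18 decapping and 5′ to 3′ decay genes, JQ1 raised 2 and lowered 4 in wild type, and raised 2 and lowered 6 in knockout, or 33.3% and 44.4% called. In wild type 2 rather than 6 were called without wild-type DMSO replicate 1 or 3 or wild-type JQ1 replicate 1, and 3 without wild-type JQ1 replicate 2. XRN1, the 5′ to 3′ exonuclease, was at 136, 137 and 139 CPM for wild type with DMSO, 97.0, 106 and 108 CPM for wild type with JQ1, 147, 115 and 122 CPM for knockout with DMSO and 84.0, 94.7 and 62.4 CPM for knockout with JQ1. The JQ1 libraries lay below the DMSO libraries in both genotypes. DCP1A, a decapping cofactor, fell by 0.36 in wild type and by 0.45 in knockout on the log2 scale (edgeR adjusted p 0.000258 and 3.27e-05), and XRN1 fell by 0.68 in knockout (0.000488). LSM5, part of the LSM ring on deadenylated mRNA, fell by 0.27 in wild type (edgeR adjusted p 0.00848). LSM7 was the single gene of the list that passed in knockout DMSO (0.32, edgeR adjusted p 0.00709), where 2 passed without knockout DMSO replicate 1 or knockout JQ1 replicate 1 and 3 without knockout JQ1 replicate 3.

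Of 16 exosome and Ski complex genes, which degrade RNA from the 3′ end, JQ1 raised 2 and lowered 2 in wild type, and raised 1 and lowered 3 in knockout, or 25% called in each. In wild type 1 rather than 4 were called without wild-type DMSO replicate 1 or 3 or wild-type JQ1 replicate 1, and 0 without wild-type JQ1 replicate 2. SKIV2L, the Ski helicase, rose by 0.30 and EXOSC6 by 0.31 in wild type (edgeR adjusted p 0.0115 and 0.0364). DIS3L, a cytoplasmic exosome nuclease, fell by 0.36 and EXOSC5 by 0.42 on the log2 scale in knockout (edgeR adjusted p 0.00192 and 0.00262). Between genotypes EXOSC7 was higher in knockout DMSO (0.49, edgeR adjusted p 0.00771), and in JQ1 EXOSC2 was higher (0.25, adjusted p 0.0111) and DIS3L lower (-0.27, adjusted p 0.0399). In DMSO 3 rather than 1 passed without knockout JQ1 replicate 3. In JQ1 the 1 lower call of the list was lost without any 1 of the wild-type libraries or knockout DMSO replicate 2 or 3, and both calls were lost with no filter on low counts or with the compared groups alone.

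Around YTHDF2, the 13 other genes of N6-methyladenosine had 1 higher and 1 lower with JQ1 in wild type and 1 higher and 3 lower in knockout, or 15.4% and 30.8% called. In wild type 1 rather than 2 were called without wild-type DMSO replicate 1 or 3 or wild-type JQ1 replicate 1, and 5 without knockout JQ1 replicate 3. ALKBH5, the demethylase, was at 90.2, 92.6 and 96.8 CPM for wild type with DMSO, 157, 152 and 141 CPM for wild type with JQ1, 90.3, 88.7 and 96.1 CPM for knockout with DMSO and 147, 142 and 172 CPM for knockout with JQ1. Every JQ1 library lay above every DMSO library. The log2 fold changes were 0.68 (SE 0.073, edgeR adjusted p 5.25e-06) and 0.75 (SE 0.073, adjusted p 1.96e-06), larger than that of any of the 10 genes. VIRMA, a subunit of the methyltransferase complex, fell by 0.31 in wild type and 0.50 in knockout on the log2 scale (edgeR adjusted p 0.013 and 0.000395).

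Of 6 tested 14-3-3 genes, whose proteins bind phosphorylated ZFP36, JQ1 raised 5 in wild type and 5 in knockout, and lowered 0, so 83.3% were called in each. The median log2 fold change was 0.28 in wild type and 0.32 in knockout, against -0.034 and -0.004 over all genes tested. YWHAB was at 281, 275 and 283 CPM with DMSO and 339, 340 and 329 CPM with JQ1 in wild type, and at 264, 274 and 290 CPM in knockout DMSO and 387, 377 and 364 CPM in knockout JQ1. It did not overlap between treatments in either genotype, and rose by 0.45 in knockout (SE 0.049, edgeR adjusted p 6.28e-06). YWHAQ rose by 0.33 and YWHAZ by 0.32 in wild type (edgeR adjusted p 6.76e-05 and 0.000236), and YWHAZ by 0.41 in knockout (2.17e-05). With library totals as the scaling, 3 rather than 5 were called higher in wild type, and still 5 in knockout. YWHAQ was also higher in knockout DMSO than in wild-type DMSO (0.19, edgeR adjusted p 0.0217), a call lost under library totals and without any 1 of the wild-type DMSO libraries or knockout DMSO replicate 1 or 3.

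Of 11 genes listed for stress granules, which TIA1 and TIAL1 enter, JQ1 raised 3 and lowered 1 in wild type. In knockout it raised 3 and lowered 3, and the shares called were 36.4% and 54.5%. G3BP1, a granule nucleator, rose by 0.33 and 0.49 (edgeR adjusted p 0.00113 and 2.95e-05) in wild type and knockout, while TIA1 had values of -0.26 and -0.30 in the same contrasts. EIF2AK2, the double-stranded RNA sensor kinase PKR, fell by 0.47 and 0.32 on the log2 scale (edgeR adjusted p 3.28e-05 and 0.000769). PRRC2C was at 420, 420 and 395 CPM in wild-type JQ1 and 286, 328 and 293 CPM in knockout JQ1, lower in knockout by a log2 fold change of -0.45 (edgeR adjusted p 0.000358).

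Of 13 genes of the p38 and MK2 pathway besides MAPKAPK2, JQ1 lowered 2 and raised 0 in wild type, and lowered 3 and raised 2 in knockout, or 15.4% and 38.5% called. MAPKAPK2 itself rose by 0.39 with JQ1 in wild type (edgeR adjusted p 0.00109). MAPKAPK3, the kinase closest to MK2, was at 29.6, 27.3 and 29.1 CPM for wild type with DMSO, 19.5, 23.5 and 19.3 CPM for wild type with JQ1, 29.2, 29.2 and 31.2 CPM for knockout with DMSO and 15.9, 15.2 and 17.2 CPM for knockout with JQ1. The DMSO libraries of both genotypes lay above all JQ1 libraries. It fell with JQ1 by 0.47 in wild type and 0.89 in knockout on the log2 scale (edgeR adjusted p 0.000586 and 1.78e-06), and was lower in knockout JQ1 than in wild-type JQ1 (-0.36, adjusted p 0.0162). HSPB1, a small heat shock protein phosphorylated by MK2, fell by 0.43 and 0.89 (edgeR adjusted p 0.00525 and 1.32e-05). MAP2K6, a kinase above p38, was lower in knockout JQ1 than in wild-type JQ1 (-0.60, adjusted p 0.00223). In DMSO 0 of the 13 passed between genotypes with edgeR or DESeq2, and 1 had an unadjusted p under 0.05. There 1 passed without knockout JQ1 replicate 3, and, also without it, 8 rather than 2 were called with JQ1 in wild type, 5 of them higher. Without wild-type JQ1 replicate 3 the latter number was 5. Between genotypes in JQ1 1 rather than 2 were called without wild-type JQ1 replicate 2 or knockout JQ1 replicate 1 or 2.

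The mRNAs known as targets of the ZFP36 family had 22 tested genes. Knockout lowered 9 and raised 2 in DMSO, and lowered 5 and raised 1 with JQ1, or 50% and 27.3% called, against 7.92% and 8.57% of all genes tested. The list was chosen with earlier results of these data known, so its direction is not independent evidence. Their median log2 fold change was -0.30 in DMSO and -0.06 with JQ1, against -0.005 and -0.002 over all genes tested. Over the alternatives the number lower in DMSO ran from 4 (limma on the authors' signal, or without knockout DMSO replicate 2) to 12 (the compared groups alone, or without knockout JQ1 replicate 3). It was 5 without wild-type DMSO replicate 2 or 3 and without knockout DMSO replicate 3.

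CXCL8, whose element is printed above with those of the ZFP36 family, was at 30.0, 29.5 and 33.2 CPM for wild type with DMSO, 12.8, 13.7 and 14.5 CPM for wild type with JQ1, 8.78, 7.38 and 8.46 CPM for knockout with DMSO and 2.32, 1.99 and 1.27 CPM for knockout with JQ1. The 4 groups did not overlap. The knockout fell below wild type, with log2 fold changes of -1.91 in DMSO (SE 0.13, edgeR adjusted p 2.35e-07) and -2.90 with JQ1 (SE 0.16, adjusted p 2.22e-08). BIRC3, an inhibitor of apoptosis, was at 12.4, 12.7 and 12.8 CPM in wild-type DMSO and 6.51, 6.97 and 6.74 CPM in knockout DMSO, lower by -0.91 on the log2 scale (edgeR adjusted p 2.71e-05), and by -1.26 with JQ1 (1.71e-06). In the same contrasts ZFP36 had values of -0.19 and -0.15 and ZFP36L1 of -0.37 and -0.43.

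JQ1 raised 6 and lowered 6 of these 22 in wild type, and raised 8 and lowered 5 in knockout. These were 54.5% and 59.1% called, against 33.1% and 34.4% of all genes tested. As the list was chosen with earlier results of these data known, these shares are not independent evidence either. CDKN1A, the cell cycle inhibitor p21, rose 2.58-fold in wild type and 2.05-fold in knockout (edgeR adjusted p 1.55e-09 and 1.3e-08). CCND1, cyclin D1, rose by 0.71 and 0.99 on the log2 scale (edgeR adjusted p 1.56e-07 and 4.26e-09). CXCL8 fell by 2.16 in knockout (adjusted p 1.27e-07). With JQ1 the targets moved both ways. ZFP36 RNA was 1.37-fold higher in wild type and 1.41-fold higher in knockout, and whether it acted on these targets was not tested. The median over the targets in wild type, 0.12, became -0.01 under library totals.

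**Figure D4:**
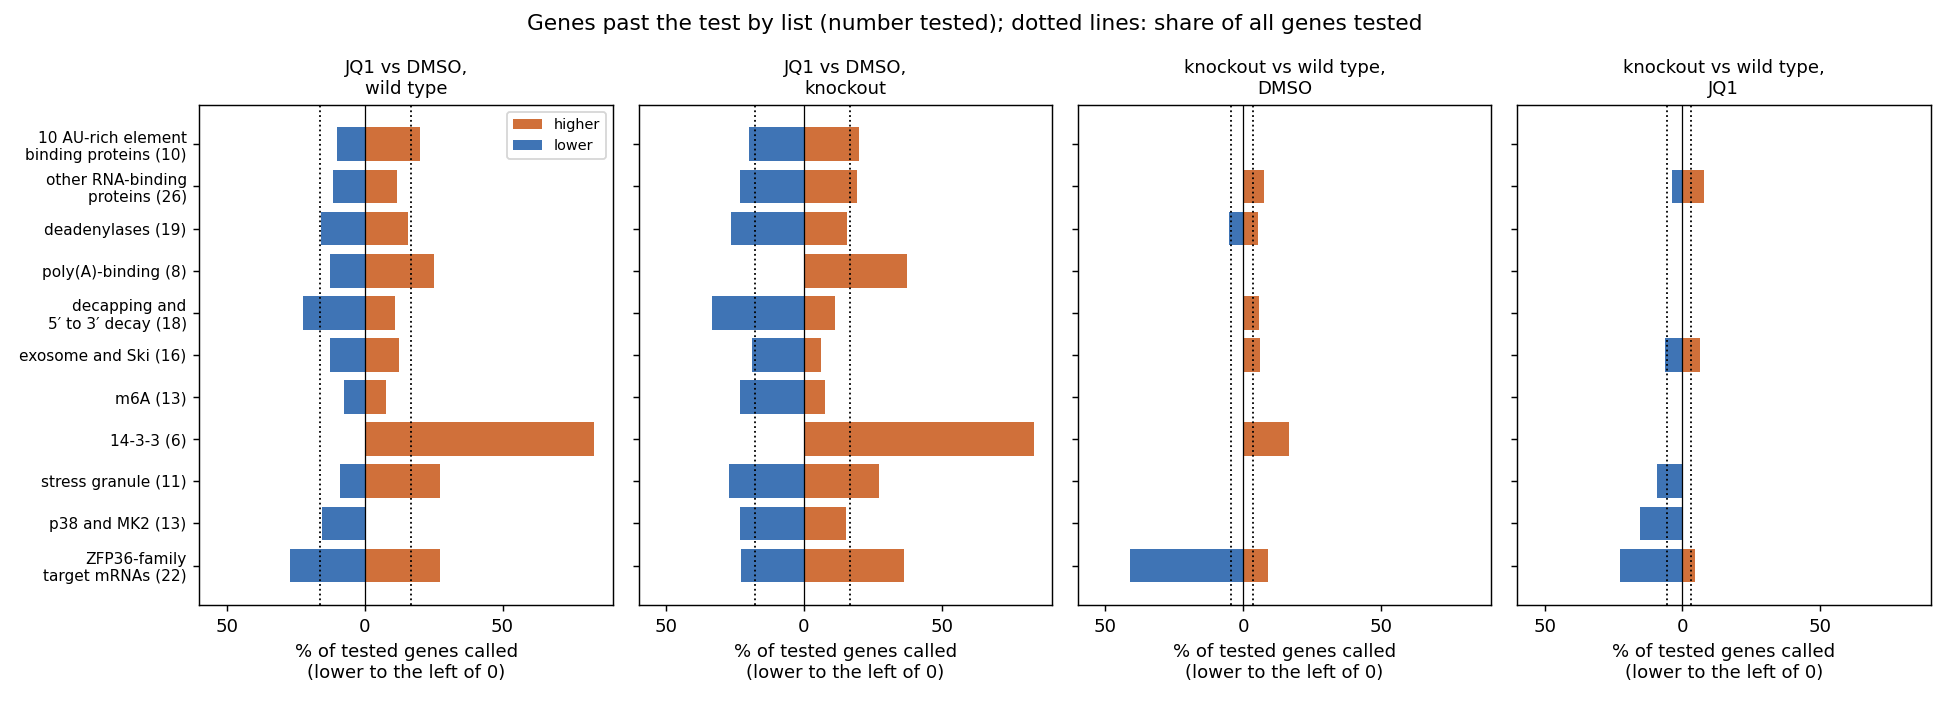
Percent of the tested genes of each list that passed (edgeR, adjusted p of at most 0.05), higher to the right and lower to the left of 0, with the number tested in parentheses. Dotted lines mark the share over all genes tested. The 14-3-3 genes reach 5 of 6 with JQ1 in both genotypes, and the ZFP36-family targets reach 9 of 22 lower in knockout DMSO.

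Shared reads could affect some of these values. CNOT1 overlaps SETD6 on the opposite strand (120559 against 6013 counts over the 12 libraries). HNRNPD overlaps AC124016.1 on the opposite strand (48474 against 205 counts). Whether the counting used strand is not given in the sources used here. Of 4 processed copies of these genes with rows in the table, HNRNPDP1 and YTHDF2P1 held 1 count each, KHSRPP1 2 and HNRNPDP2 0, over all libraries.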

How the data were processed

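RNA was depleted of ribosomal RNA and made into directional libraries, per the labels' protocols. The authors deposited estimated counts per gene symbol, and a normalized signal equal to the rounded count divided by a factor of the gene and library. The submitters' processing notes name Trim Galore, cutadapt, FastQC, MultiQC, kallisto, DESeq2 and GRCh38.p10, with no versions or roles; the annotation is not given in the sources used here.

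Estimated counts were rounded (the test had been planned for counts), filtered with filterByExpr, scaled by TMM and fitted with a term per group for all 12 libraries, using edgeR 4.0.16, limma 3.58.1 and R 4.3.3; DESeq2 1.42.0 and limma on log2(signal + 0.5) were alternatives. Each SE was taken as |log2 fold change| over the root of F, and intervals use the t quantile on the total degrees of freedom. Each column was assigned by its name, and groups came from the genotype and treatment labels; titles call the DMSO cultures untreated. Coordinates are from GENCODE 29 by symbol (GRCh38), and promoters are credited to RefSeq.

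The members and lists were chosen with earlier results of these data known. Named were the 10 genes, MAPKAPK2, the 2 genes with the smallest adjusted p per list and contrast, and the 3 genes most like each ZFP36 paralog; markers and noncoding RNAs were named besides, and a gene that the rule names is not reported here. Scripts were tested on simulated data. Alternatives were other scalings, filters, tools, thresholds, a replicate block and leaving out each library.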

Additional observations from a re-analysis of the deposited data

How the results depend on the processing

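Of 1140 values of the 10 genes under 23 alternatives, 1067 stayed on the same side of the threshold, 39 lost it, 34 gained it and 0 changed the direction of a called value. The number called with JQ1 in wild type (3) was 6 with the groups compared alone and 1 at an adjusted p of 0.01, and with JQ1 in knockout (4) it was 1 and 1. In knockout against wild type it was 1 in DMSO with no filter or with the groups compared alone, and 1 with JQ1 under library totals, with no filter and with DESeq2; each time this was ZFP36L1. Leaving out each library in turn gave 1 (without wild-type DMSO replicate 2) to 5 (without knockout JQ1 replicate 3) with JQ1 in wild type, and 1 (without knockout DMSO replicate 1) to 5 (without wild-type JQ1 replicate 1) with JQ1 in knockout, where it was 2 without any wild-type DMSO library or knockout DMSO replicate 2. It gave 0 to 1 in DMSO and 0 to 2 with JQ1 for the genotypes, both extremes without knockout JQ1 replicate 3, and 0 in all 22 fits of the difference of responses, which cannot be had from 2 groups. Counts of the lists were recomputed after the data were seen. The cause was not tested. Same-numbered libraries deviated with r from -0.486 to 0.374, over 0.1 in 2 of 12 pairs. Both of these compare JQ1 with DMSO in knockout (replicate 1 at 0.374, replicate 3 at 0.312). Deviations from means of 3 libraries cannot show whether the replicate numbers mark a pairing. With the replicate block the calls were 3, 4, 0, 1 and 0 against 3, 4, 0, 0 and 0 (ZFP36L1 with JQ1, -0.45, edgeR adjusted p 0.0487). Library totals moved the median of all genes by -0.13 in wild type and -0.12 in knockout with JQ1, and the calls to 2298 higher and 5368 lower, and 2409 and 5250; relative to TMM it turned the sign of KHSRP in both genotypes and YTHDF2 in wild type with JQ1, of ELAVL1 and CNOT1 in knockout against wild type in DMSO, and of HNRNPD there in JQ1. In DMSO that of KHSRP also turned under median-ratio scaling, the authors' factors, DESeq2 and limma, that of TIAL1 under DESeq2, and limma turned the difference of responses of ZFP36, none of them called. With DESeq2 1102 genes were higher and 900 lower in knockout DMSO, against 754 and 964. All-gene counts moved by over 1.5 times for JQ1 in wild type (7187, 4781 at 0.01), knockout in DMSO (1718, 2619 with the groups alone, 926 at 0.01, 1092 to 2650 leaving out a library), knockout with JQ1 (1860, 922 with the groups alone, 965 at 0.01, 1223 without wild-type JQ1 replicate 2) and the difference (29, 236 with no filter, 154 with DESeq2, 6 at 0.01, 8 to 88 leaving out a library). Where a group had 2 libraries, its spread was shared with the others. The lowest count of the 10 genes in a library was 307, and whether more depth would change a call was not tested.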

Other observations

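With group means removed, some of the 10 genes still varied together between libraries. Over the 12 libraries the deviations of ZFP36L1 correlated with those of ELAVL1 at r = 0.929, with ZFP36 at 0.847 and with ZFP36L2 at 0.831. TIA1 and TIAL1 correlated at 0.914, and ZFP36 with YTHDF2 at -0.8. HNRNPD followed the others little, with r from -0.509 (CNOT1) to 0.286 (ELAVL1). These points share depth and scaling and are few, so the values are a description. Knockout JQ1 replicate 3 was at the extreme of its group for all 10 genes (6 highest, 4 lowest), and knockout DMSO replicate 1 for 9 (4 highest, 5 lowest). In a group of 3, every library but the middle one is at an extreme, so this is common. Wild-type JQ1 replicate 3 had 3 highest and 6 lowest, and wild-type JQ1 replicate 1 had 5 and 3. Wild-type DMSO replicates 1 and 2 had 3 and 5, and 8 and 0. In these wild-type groups a tie in rounded CPM was counted for each tied library. The 4 noncoding RNAs took 14.6% of knockout JQ1 replicate 3 and 11% of knockout DMSO replicate 1. The other replicates of knockout DMSO had 11.6% and 10.5%. Leaving those RNAs out before scaling moved no log2 fold change of the 10 genes by more than 0.001 and changed 0 of their calls.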
